A study of Hydra vulgaris with 22 samples.

Results

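The transcripts described here are the ones that were very abundant in every sorted stem cell population of the freshwater polyp Hydra vulgaris, strain AEP. They are 169 of the 44306 transcript stems in the deposited count table, 0.381% of all. A stem is the name of an assembled transcript contig without its final contig number, and the counts of its contigs were added together. A member had a mean level of at least 500 CPM, which is the count scaled to the same total in every library, in each of the 6 sorted groups. The members were chosen by these measured levels, so levels and shares are given as descriptions with no test.

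In most animal cells a small set of genes supplies a large part of the messenger RNA. The best known of them encode ribosomal proteins, translation elongation factors, actin, tubulin, heat shock proteins, ferritin and the respiratory subunits of mitochondria. Hydra is built by 3 stem cell lineages, the epithelial cells of the outer epidermis, those of the inner gastrodermis, and the interstitial cells between them, which give rise to nerve cells, stinging cells, gland cells and germ cells. The identifiers of the table could not be joined to these gene classes: of 61501 contigs, and of their stems, 0 had a match among the 28925 Hydra genes of the reference list. Members are therefore called by their stems, with no name and no role, and neither the identity of the sorted cells nor the makeup of the list could be checked against marker genes.

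Polyadenylated RNA came from the central body column, without the apical and basal ends, of animals fed 3 times a week. Epidermal (eESC) and gastrodermal (gESC) epithelial stem cells were sorted for high eGFP from actin::eGFP lines after 10 days without food (eESC_10d, n = 4; gESC_10d, n = 3) or after 3 days (eESC_3d, n = 3; gESC_3d, n = 3). Interstitial stem cells were sorted from a cnnos1::eGFP line with a medium gate (ISC_medium, n = 3, replicate A after 5 days and B and C after 3 days) or a high gate (ISC_high, n = 4, replicates A to D after 2, 3, 3 and 5 days). A gate on a reporter takes in every cell as bright as the gate, whatever its type. There was 1 unsorted body column from an actin::eGFP line and 1 from a cnnos1::eGFP line, both at 10 days, and the label of the cnnos1 one names gastrodermal cells as its eGFP cells. Nothing in the labels says that replicates came from separate cultures, so p-values measure only the spread between these samples. Sorted libraries held 17159718 to 20327106 counts in 8 shallower libraries (eESC_3d, ISC_medium and replicates A and B of gESC_3d) and 25195891 to 31723680 in the 12 deeper ones (all the others). The unsorted libraries held 15457132 (actin line) and 13971099 (cnnos1 line).

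Replicate C of gESC_3d stood apart from its group. Over all members but the most abundant, its root mean square distance from replicates A and B was 0.73 on the log2 scale, against 0.299 from the 3 gESC_10d libraries, and its nearest library was gESC_10d replicate A. Over the 9196 stems with a mean of at least 5 CPM the distances were 0.62 and 0.467, and the nearest library was the same. Replicate C was also the only gESC_3d library in the deeper range, which it shares with the gESC_10d libraries, while its label gives 3 days. Whether its place goes with the depth range or with an exchange of samples was not tested. Counts of calls, named fold changes and correlations that use gESC_3d are also given without replicate C.

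The members took 33.9 to 51.7% of the counts of a sorted library. Their share was 40.4, 35.7, 40.1 and 33.9% in the 4 eESC_10d libraries and 39.2, 36.6 and 35.1% in eESC_3d, 40.1, 36.9 and 44.6% in gESC_10d and 41.6, 40.6 and 39.5% in gESC_3d. It was 51.7, 47.7 and 49.0% in ISC_medium and 44.0, 50.7, 47.2 and 48.5% in ISC_high. The means were 37.5 ± 3.21% (SD, n = 4) in eESC_10d, 36.9 ± 2.07% (n = 3) in eESC_3d, 40.5 ± 3.89% (n = 3) in gESC_10d, 40.6 ± 1.02% (n = 3) in gESC_3d, 49.5 ± 2.08% (n = 3) in ISC_medium and 47.6 ± 2.82% (n = 4) in ISC_high. Every ISC_medium library lay above every epithelial library, while the lowest ISC_high library lay just under the highest gESC_10d library. The 10-day and 3-day groups of each epithelial layer overlapped, and so did the gates. In the unsorted libraries the members took 43.3% (actin line) and 46.0% (cnnos1 line), between the epithelial and the interstitial means. In bulk RNA, fewer cells of a type and less RNA per cell cannot be told apart.

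**Figure D1:**
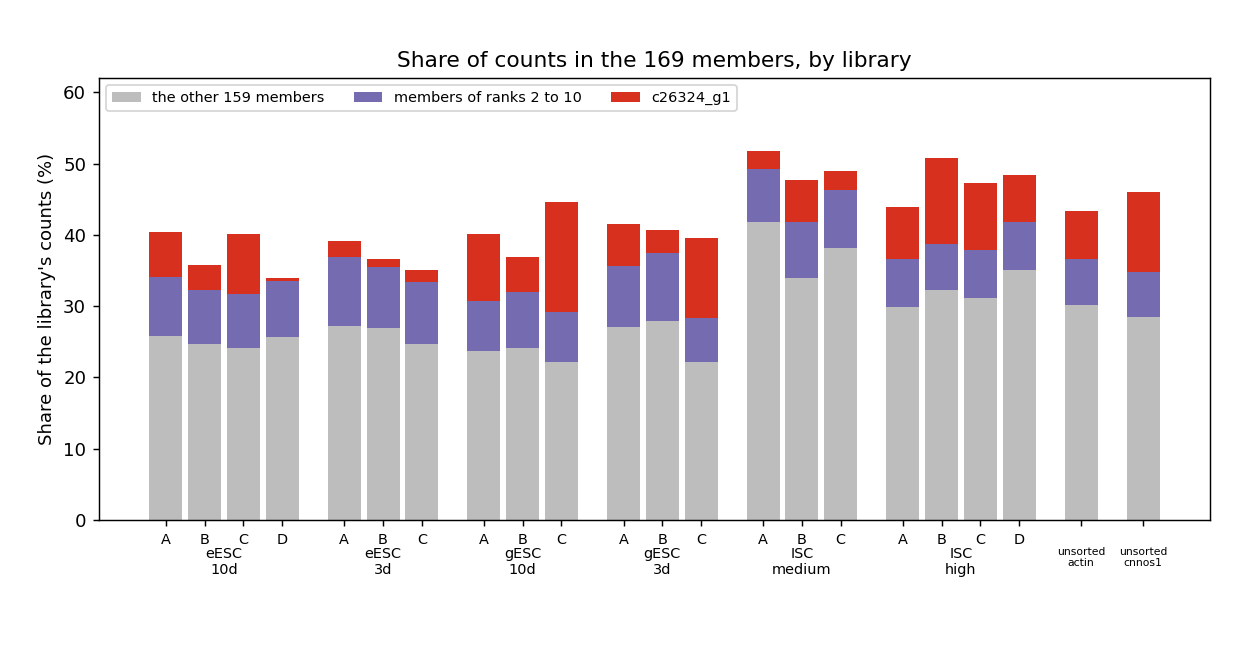
Share of each library's counts (%, vertical axis) taken by the 169 members, with libraries by group along the horizontal axis. The red part is the most abundant member, c26324_g1, the purple part the members of ranks 2 to 10 and the grey part the other 159; the 3 ISC_medium bars, at 47.7 to 51.7%, stand above all epithelial bars.

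The most abundant member varied widely between libraries of a group. The stem c26324_g1, a single contig, took 6.30, 3.53, 8.33 and 0.356% of counts in eESC_10d and 2.30, 1.17 and 1.72% in eESC_3d. It took 9.36, 4.84 and 15.4% in gESC_10d and 6.02, 3.19 and 11.2% in gESC_3d. It took 2.53, 5.95 and 2.65% in ISC_medium, 7.39, 12.0, 9.29 and 6.61% in ISC_high, and 6.61 and 11.1% in the unsorted actin and cnnos1 lines. Relative to its mean, its spread was widest in eESC_10d, where replicate D was the lowest of all 22 libraries and the stem's coefficient of variation (SD over mean) reached 74.8%. The SD of its share was largest in gESC_10d, at 5.31% of counts, against 3.46% in eESC_10d. The stem c26324_g1 was the most abundant in every library but eESC_10d replicate D, where it ranked 24, and eESC_3d replicates A, B and C, where it ranked 2, 5 and 3. The 14 largest values of the whole count table belong to this contig and end in 0, so they carry 6 digits.

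With c26324_g1 taken out of the members and of the totals, the shares were 34.5 ± 1.36% (SD, n = 4) in eESC_10d and 35.8 ± 1.90% (n = 3) in eESC_3d. They were 34.0 ± 0.439% (n = 3) in gESC_10d and 36.1 ± 3.67% (n = 3) in gESC_3d, 47.5 ± 3.06% (n = 3) in ISC_medium and 42.5 ± 2.39% (n = 4) in ISC_high. Without this stem all 7 interstitial libraries, at 39.5 to 50.5%, lay above all 13 epithelial libraries, at 31.9 to 38.7%. The lowest epithelial share belonged to gESC_3d replicate C, against 37.8 and 38.7% in replicates A and B. The unsorted libraries had 39.3 and 39.2%.

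The level fell steeply along the list. The 10 most abundant members held 32.5% of the members' summed level, c26324_g1 alone 14.1%, and 30 members held 50% of it. The median member had 1594 CPM over the 6 group means, and 130 members had at least 1000 CPM. Most of the most abundant stems of interstitial cells were members: 9 of the top 10 stems of ISC_medium and 10 of the top 10 of ISC_high, against 6 in eESC_10d, 5 in eESC_3d, 7 in gESC_10d and 7 in gESC_3d. Among the top 100 stems, members numbered 76 in eESC_10d, 69 in eESC_3d, 74 in gESC_10d, 75 in gESC_3d, 92 in ISC_medium and 99 in ISC_high.

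Of all stems with at least 500 CPM somewhere, 137 reached it in 1 group only, 162 in 2, 23 in 3, 53 in 4 and 25 in 5. In a given group 292 to 328 stems reached it, and the members were 51.5 to 57.9% of them. The members nearest above the threshold, by their lowest group mean, were c25303_g1 (503 CPM in eESC_3d), c25646_g2 (503 CPM in ISC_high) and c26240_g1 (504 CPM in gESC_3d). The stems nearest below it were c25547_g1 (498 CPM in eESC_3d), c25833_g1 (492 CPM in ISC_high) and c25355_g1 (486 CPM in gESC_10d). In single libraries, 154 of the 169 members had at least 500 CPM in all 20 sorted libraries.

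The second most abundant member, c25578_g1, showed the clearest difference of level between epithelial and interstitial cells. It had 24915, 22159.9, 22616 and 23527 CPM in eESC_10d, 30367, 26109 and 27128 in eESC_3d, 20034, 23597 and 21064 in gESC_10d and 25511, 28657 and 17290.1 in gESC_3d. It had 7204, 8446 and 8798 CPM in ISC_medium and 5566, 4466, 4504 and 4844 in ISC_high. Every epithelial library lay above every interstitial one, and every ISC_medium library lay above every ISC_high one. Its levels in the unsorted libraries, 18899 and 18729 CPM, were within the epithelial range.

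The next members by level differed less between groups. The stem c25067_g1 ranged from 7462 CPM in gESC_3d replicate C to 16780 CPM in ISC_medium replicate C, and all 3 ISC_medium libraries lay above every library of the other groups. The stem c25830_g1 was among the steadiest, with group means of 9478 (eESC_10d), 11219 (eESC_3d), 9107 (gESC_10d), 11166 (gESC_3d), 9177 (ISC_medium) and 10091 CPM (ISC_high). The stem c25846_g1 was highest in eESC_3d, at 11989.9, 10073 and 10517 CPM, against 5294, 5121, 5162 and 5457 CPM in ISC_high. For c26342_g1, c26279_g1, c26205_g1, c26238_g1 and c26229_g1 the highest group mean was 1.47 to 2.14 times the lowest; their single libraries ran from 3176 to 10453 CPM.

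**Figure D2:**
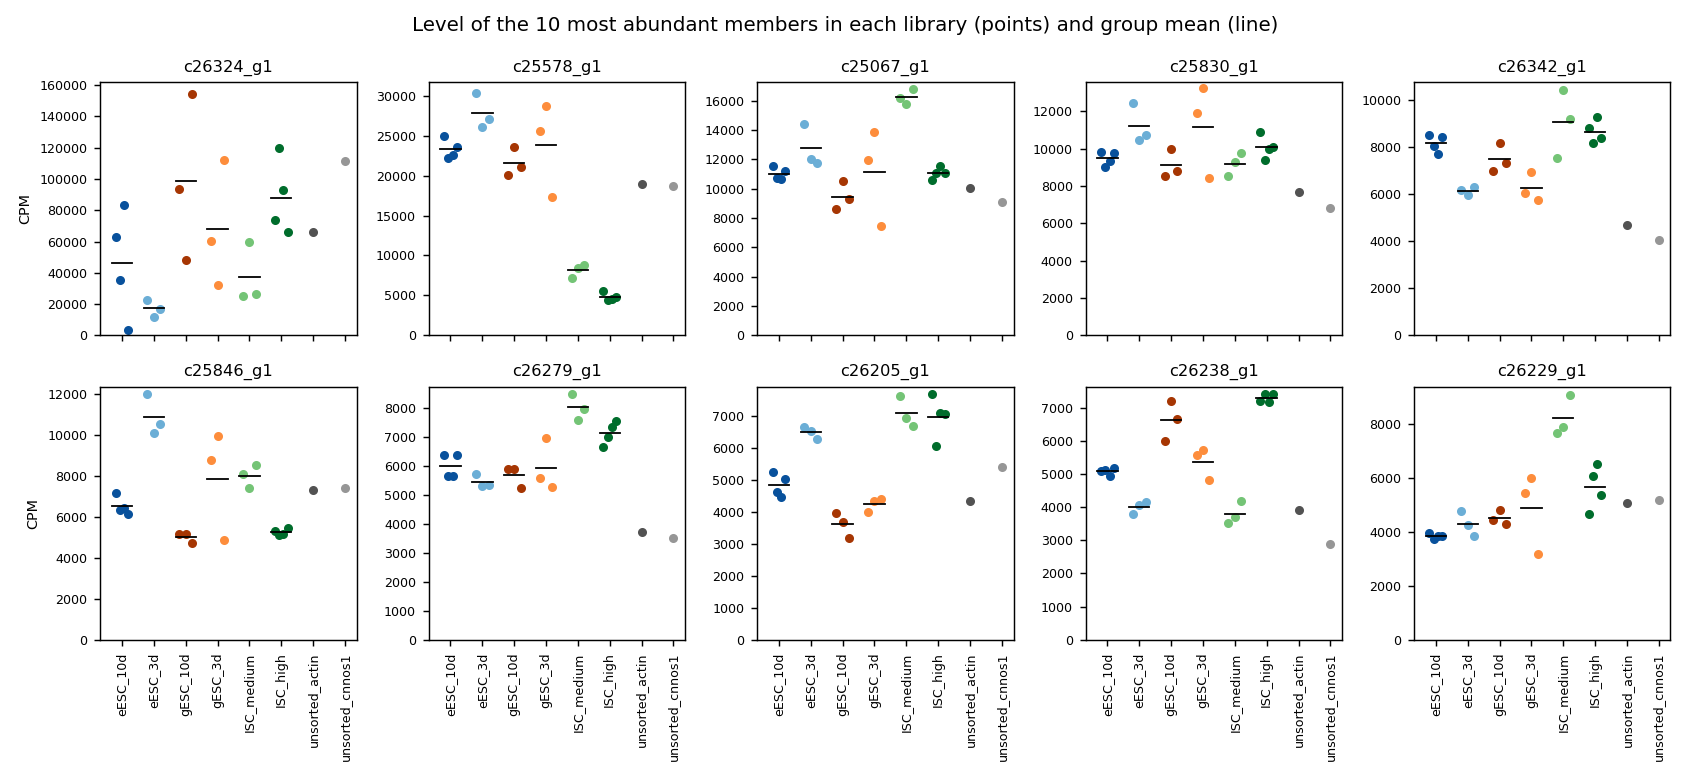
Level (CPM, vertical axes starting at 0) of the 10 most abundant members in each library, 1 panel per member; points are libraries, black lines are means of sorted groups, and the unsorted libraries are single points. c26324_g1 varies most within groups (3559 to 154300 CPM over the sorted libraries), and c25578_g1 separates epithelial libraries (17290 CPM or more) from interstitial ones (8798 CPM or less).

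The highest group mean of a member was 1.96 times its lowest at the median. For 90 of the 169 members this ratio was under 2, for 23 under 1.5 and for 5 over 4. The steadiest 5 were c25708_g1 (1.21), c25830_g1 (1.23), c26149_g1 (1.23), c26042_g1 (1.25) and c25911_g1 (1.26). The 5 with the widest spread were c25907_g1 (8.49), c25578_g1 (5.75), c26324_g1 (5.72), c25562_g1 (4.81) and c25362_g1 (4.49). They differed in shape: c25907_g1 and c25578_g1 were highest in epidermal cells and lowest in ISC_high, while c25562_g1 and c25362_g1 were highest in ISC_medium and lowest in 10-day epithelial groups.

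The stem c26042_g1 shows how level a member could be. It had 1017, 1021, 1004 and 1059 CPM in eESC_10d and 957, 913 and 879 in eESC_3d, 994, 1062 and 993 in gESC_10d and 984, 1148 and 921 in gESC_3d. It had 1084, 1156 and 1187 CPM in ISC_medium and 986, 1039, 1075 and 1051 in ISC_high. The groups lay in 1 band, and both unsorted libraries, at 698 and 554 CPM, fell below it. Within groups the median coefficient of variation over members was 4.51% in eESC_10d, 8.79% in eESC_3d, 8.50% in gESC_10d, 15.8% in gESC_3d, 11.8% in ISC_medium and 9.00% in ISC_high, so gESC_3d, with its replicate C, was the most variable. Next to c26324_g1, the largest within-group coefficients belonged to c26240_g1 (51.2% in gESC_3d) and c25983_g2 (44.9% in gESC_3d).

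The group with the highest mean was ISC_medium for 101 members, ISC_high for 38, eESC_3d for 11, eESC_10d for 7, gESC_10d for 6 and gESC_3d for 6. The group with the lowest mean was gESC_10d for 76, eESC_3d for 38, eESC_10d for 22, gESC_3d for 14, ISC_high for 11 and ISC_medium for 8. On this scale of shares of all counts, an interstitial group thus held the top place for most members.

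**Figure D3:**
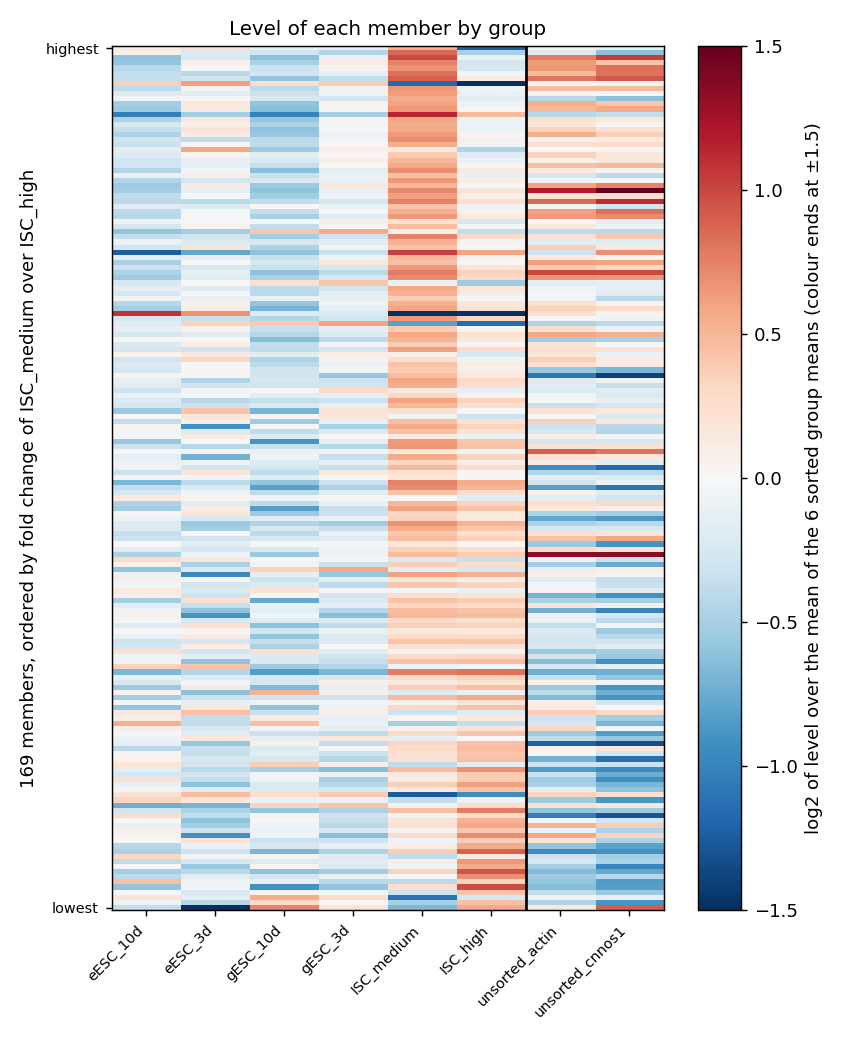
Level of each of the 169 members (rows) in the 6 sorted groups (means) and the 2 unsorted libraries (columns, right of the black line), as log2 of the level over the mean of the 6 sorted group means, with colours ending at ±1.5. Rows run by the fold change of ISC_medium over ISC_high, highest at the top; ISC_medium is the column with the highest mean for 101 members.

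Differences between groups were tested with edgeR's quasi-likelihood test over all 18288 stems that passed the filter on low counts, the 169 members among them, with Benjamini-Hochberg adjustment over those stems and a call at an adjusted p under 0.05. Library sizes were scaled by trimmed mean of M values (TMM), which sets fold changes relative to the bulk of stems and not to all counts, so a fold change can differ from the ratio of the CPM given beside it. The rule required at least 500 CPM in every group, which limits how far a member can lie below another group. The members named for their calls in a comparison were picked from those whose groups did not overlap in CPM. Their lack of overlap was thus set by this choice and adds no support. Counts of called members in the main fits are given beside the share of all stems called, and nothing is read from the distance between them. For most alternative settings only counts of members are given, so they do not show whether all stems moved the same way.

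Epidermal and gastrodermal cells were compared to ask how the epithelial layers differ. After 3 days, 23 of the 169 members were called in eESC_3d against gESC_3d, 3 higher and 20 lower, where 49.6% of all stems were called (24.7% higher and 24.9% lower). The median log2 fold change was -0.19 over members and 0.00 over all stems. After 10 days, 15 members were called in eESC_10d against gESC_10d, 5 higher and 10 lower, where 51.9% of all stems were called (28% higher and 24% lower), and the medians were -0.04 and 0.04. Most members were not called between the layers at either time, but the rule, with 500 CPM in both layers, keeps out stems missing in 1 of them. Of the calls, 2 were higher in epidermal cells and 9 lower at both times, and none had opposite signs. Of all stems, 4043 were higher and 3910 lower at both times, and 2 were called with opposite signs. Libraries of the comparisons at 3 and at 10 days were all different. The fold changes had opposite signs at 3 and 10 days for 26.0% of members and 13.0% of all stems, and their Spearman correlation was 0.78 across the 169 members, which are not independent replicates, and 0.91 across all stems.

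The members higher in epidermal cells were led by c25907_g1. It had 3475, 4282 and 4113 CPM in eESC_3d, against 1859, 1959.7 and 2519 CPM in gESC_3d (log2 fold change 0.73, SE 0.21, edgeR's adjusted p = 0.0063). After 10 days it had 5264, 5629, 4770.2 and 5373 CPM in eESC_10d, against 2565, 2006 and 1900.1 CPM in gESC_10d (log2 fold change 1.12, SE 0.20, edgeR's adjusted p = 8.1e-05). The groups did not overlap at either time. The stem c24789_g1 had 1807, 1715 and 1774 CPM in eESC_3d, against 977, 1021 and 886 CPM in gESC_3d (log2 fold change 0.69, SE 0.16, edgeR's adjusted p = 0.0014). It had 1725, 1657, 1540.1 and 1731 CPM in eESC_10d, against 779, 1014 and 895 CPM in gESC_10d (log2 fold change 0.75, SE 0.15, edgeR's adjusted p = 3.5e-04). Every epidermal library lay above every gastrodermal one at both times.

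Further members passed at a single time. The stem c26205_g1 had 6654, 6536 and 6288 CPM in eESC_3d, against 3999, 4328 and 4388 CPM in gESC_3d (log2 fold change 0.43, SE 0.17, edgeR's adjusted p = 0.037). The stem c26174_g1 had 4840.3, 4688, 4364 and 4847 CPM in eESC_10d, against 2587, 3335 and 2904 CPM in gESC_10d (log2 fold change 0.52, SE 0.16, edgeR's adjusted p = 0.0079). Neither pair of groups overlapped, but the call of c26205_g1 was lost when replicate A or C of eESC_3d, or A or C of gESC_3d, was left out (adjusted p from 0.0563 to 0.178).

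The members lower in epidermal cells included c26093_g1 and c26081_g1 at both times. The stem c26093_g1 had 747, 1008 and 850.2 CPM in eESC_3d, against 1746, 1753 and 2171 CPM in gESC_3d (log2 fold change -1.31, SE 0.23, edgeR's adjusted p = 1.2e-04). At 10 days it had 864, 799, 853 and 869 CPM in eESC_10d, against 2106, 1681 and 1521 CPM in gESC_10d (log2 fold change -1.23, SE 0.21, edgeR's adjusted p = 7.4e-05). Every gastrodermal library lay above every epidermal one; counted by its leading contig alone, the 10-day call was lost (adjusted p = 0.0787).

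The stem c26081_g1 had 619.6, 562 and 512 CPM in eESC_3d, against 1187, 1318 and 1047 CPM in gESC_3d (log2 fold change -1.26, SE 0.17, edgeR's adjusted p = 6.0e-06). At 10 days it had 541, 520.3, 529 and 539 CPM in eESC_10d, against 1058, 1135 and 1007 CPM in gESC_10d (log2 fold change -1.15, SE 0.16, edgeR's adjusted p = 5.2e-06). Epidermal libraries sat just above the 500 CPM of the rule and gastrodermal ones at 1007 CPM or more. The stem c25450_g1 had 826, 721, 819 and 815 CPM in eESC_10d, against 1620.1, 1584 and 1369 CPM in gESC_10d (log2 fold change -1.09, SE 0.16, edgeR's adjusted p = 1.1e-05). Its groups did not overlap; the fold change of its leading contig alone was -0.83 (adjusted p = 0.458).

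The most abundant member, c26324_g1, had 22952, 11702 and 17187 CPM in eESC_3d, against 60198, 31948 and 111881 CPM in gESC_3d (log2 fold change -2.06, SE 0.73, edgeR's adjusted p = 0.025). The groups did not overlap, but the call was lost without replicate B (adjusted p = 0.0939) or C (0.0696) of eESC_3d or replicate C of gESC_3d (0.0937). At 10 days the eESC_10d libraries, at 3559 to 83253 CPM, overlapped with the gESC_10d ones, at 48388 to 154300 CPM, and the stem was not called. Without gESC_3d replicate C the 3-day log2 fold changes of c25907_g1, c24789_g1, c26093_g1 and c26081_g1 were 0.76, 0.54, -1.30 and -1.42, all still called, and that of c26324_g1 was -1.65. Over all members, leaving out gESC_3d replicate C gave 47 calls at 3 days, 2 higher and 45 lower in eESC_3d, where 42.8% of all stems were called (20.5% higher and 22.3% lower), and leaving out eESC_3d replicate B or C gave 13 or 12. Scaled by library size alone, the split of calls was 13 higher and 12 lower at 3 days and 20 higher and 9 lower at 10 days.

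Epithelial cells were compared with interstitial cells of the high gate. In eESC_3d against ISC_high, 71 members were called, 24 higher and 47 lower, where 67.3% of all stems were called (36.7% higher and 30.6% lower); the medians were -0.05 over members and 0.06 over all stems. In gESC_3d against ISC_high, 69 members were called, 43 higher and 26 lower, where 65.5% of all stems were called (35.8% higher and 29.8% lower); the medians were 0.09 and 0.00. The comparisons share the ISC_high libraries. Which direction was more frequent depended on the scaling. Median-of-ratios factors gave 44 higher and 30 lower in eESC_3d, and 58 and 14 in gESC_3d. Library size alone gave 18 higher and 76 lower in eESC_3d, and 14 and 85 in gESC_3d. Without gESC_3d replicate C, 91 members were called in gESC_3d, 72 higher and 19 lower, where 59.4% of all stems were called (33.8% higher and 25.6% lower).

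The members with the highest fold changes over ISC_high were the same 3 stems in both epithelial layers. The stem c25907_g1 had 3475, 4282 and 4113 CPM in eESC_3d and 1859, 1959.7 and 2519 CPM in gESC_3d, against 538, 606, 536 and 799 CPM in ISC_high. It was 7.47-fold higher in eESC_3d (log2 fold change 2.90, SE 0.20, edgeR's adjusted p = 1.9e-10) and 4.52-fold higher in gESC_3d (log2 fold change 2.18, SE 0.19, edgeR's adjusted p = 1.2e-08). This stem thus stepped down across the 3 populations, from epidermal over gastrodermal to interstitial cells. The stem c25578_g1, with the levels given above, was 6.85-fold higher in eESC_3d (log2 fold change 2.78, SE 0.20, edgeR's adjusted p = 4.0e-10) and 6.74-fold higher in gESC_3d (log2 fold change 2.75, SE 0.20, edgeR's adjusted p = 6.9e-10).

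The third of these stems, c25646_g2, had 1560.2, 1255 and 1398 CPM in eESC_3d and 1616, 1864 and 1609 CPM in gESC_3d, against 613, 404, 504 and 492 CPM in ISC_high. It was 3.32-fold higher in eESC_3d (log2 fold change 1.73, SE 0.20, edgeR's adjusted p = 4.3e-07) and 4.55-fold higher in gESC_3d (log2 fold change 2.18, SE 0.21, edgeR's adjusted p = 2.7e-08). Its ISC_high mean was only just inside the rule, and no epithelial library reached as low as any ISC_high library. Without gESC_3d replicate C, c25578_g1, c25646_g2 and c25907_g1 were 8.08-, 4.98- and 4.44-fold higher in gESC_3d than in ISC_high, and still called. All 3 stems stayed called with a term for the depth range in the fit.

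Below ISC_high, eESC_3d was led by c26324_g1, c24312_g1 and c25297_g1. The stem c26324_g1 had 22952, 11702 and 17187 CPM in eESC_3d, against 73864, 119808, 92901 and 66065 CPM in ISC_high (log2 fold change -2.06, SE 0.71, edgeR's adjusted p = 0.015). The stem c24312_g1 had 345, 665 and 566 CPM in eESC_3d, against 1214, 1678, 1362 and 2123 CPM in ISC_high (log2 fold change -1.40, SE 0.26, edgeR's adjusted p = 1.2e-04). The stem c25297_g1 had 852, 1223 and 954 CPM in eESC_3d, against 2234, 3009, 2370.5 and 3764 CPM in ISC_high (log2 fold change -1.27, SE 0.24, edgeR's adjusted p = 1.1e-04). None of these groups overlapped. All eESC_3d libraries are in the shallower and all ISC_high libraries in the deeper range, and with a term for the depth range the adjusted p-values were 0.552, 0.218 and 0.241. Leaving out eESC_3d replicate B also ended the call of c26324_g1 (adjusted p = 0.067).

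With all 3 gESC_3d libraries, the lowest fold changes against ISC_high belonged to c26233_g1, c26283_g1 and c26073_g1. The stem c26233_g1 had 1378, 1523 and 754 CPM in gESC_3d, against 3842, 3715, 3584 and 3382 CPM in ISC_high (log2 fold change -1.11, SE 0.22, edgeR's adjusted p = 2.3e-04). The stem c26283_g1 had 2618, 2832 and 1236 CPM in gESC_3d, against 5645, 6593, 7185 and 5857 CPM in ISC_high (log2 fold change -1.03, SE 0.25, edgeR's adjusted p = 0.0014). The stem c26073_g1 had 868, 915 and 752 CPM in gESC_3d, against 2443, 2204, 2334 and 2369 CPM in ISC_high (log2 fold change -1.03, SE 0.15, edgeR's adjusted p = 5.6e-06). Each was lower in all 3 gESC_3d libraries than in any ISC_high library, stayed called without replicate C of gESC_3d and stayed called with the depth term. Without replicate C their log2 fold changes were -0.79, -0.68 and -0.86, and the lowest then belonged to c24312_g1 (-1.19), c25983_g2 (-1.02) and c25297_g1 (-0.97). The call of c26073_g1 was lost for its leading contig alone (adjusted p = 0.432).

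The interstitial gates were compared next. In ISC_medium against ISC_high, 112 members were called, 110 higher and 2 lower, where 34.5% of all stems were called (15.1% higher and 19.4% lower). The median log2 fold change was 0.59 over members and -0.04 over all stems. Scaled by library size alone, 52 members were higher and 22 lower, and the medians moved to 0.20 and -0.43. On that scale of shares of all counts, the members' total share overlapped between the gates, as given above.

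The largest difference between the gates belonged to c26041_g1. It had 4077, 4479 and 4589 CPM in ISC_medium, against 1043, 1367, 1409.9 and 1306 CPM in ISC_high, and was 4.47-fold higher (log2 fold change 2.16, SE 0.19, edgeR's adjusted p = 9.5e-08). Its epithelial libraries, at 1947 to 3757 CPM, lay between the gates. The stem c25981_g1 had 2091, 2732 and 2386 CPM in ISC_medium, against 1029, 861, 1008 and 890.3 CPM in ISC_high, and was 3.31-fold higher (log2 fold change 1.73, SE 0.13, edgeR's adjusted p = 1.8e-08). The stem c25658_g1 had 4141, 1902 and 2795 CPM in ISC_medium, against 1074, 1403, 1230.3 and 1819 CPM in ISC_high, and was 2.82-fold higher (log2 fold change 1.49, SE 0.28, edgeR's adjusted p = 3.3e-04). None of the 3 overlapped between gates, as the choice of named members required.

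The members lower in ISC_medium were c26238_g1 and c25778_g1. The stem c26238_g1 had 3530.0, 3694 and 4184 CPM in ISC_medium, against 7193, 7414, 7183 and 7407 CPM in ISC_high (log2 fold change -0.55, SE 0.13, edgeR's adjusted p = 0.0028). The stem c25778_g1 had 815, 615 and 611 CPM in ISC_medium, against 1302, 1130.4, 1133 and 1446 CPM in ISC_high (log2 fold change -0.48, SE 0.18, edgeR's adjusted p = 0.048). Neither overlapped on the CPM scale, but the call of c25778_g1 was lost without ISC_medium replicate B or C or ISC_high replicate A, C or D (adjusted p from 0.0544 to 0.208).

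The gates also differed in depth range: all 3 ISC_medium libraries were shallower and all 4 ISC_high libraries deeper. A term for the depth range, which rests on gESC_3d, the only group with libraries in both ranges, left 11 calls, 3 higher and 8 lower. The medians were then 0.03 over members and -0.22 over all stems. The share of all stems called with the term is not given, so the fall in calls is not read as particular to the members. With the term c26041_g1 and c25981_g1 were higher (log2 fold change 1.19 and 1.39) and c26238_g1 lower (-1.06). On the TMM scale, in the deeper replicate C of gESC_3d, 147 of the 169 members lay below the mean of A and B, with a median log2 difference of -0.56, while 52.9% of the 9196 stems with at least 5 CPM did, with a median of -0.04. Of the 110 members higher in ISC_medium, 102 lay lower in replicate C, with a median of -0.68. With libraries thinned to the smallest total, 116 members were called higher and 1 lower, with medians of 0.65 over members and -0.0065 over all stems. Thinning evens the totals only. The part of the depth range in the gate calls cannot be told apart from the gates themselves.

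Within each gate, the library from animals without food for 5 days was set against the 3-day libraries. These values were singled out after they had been seen, and each gate has a single 5-day library, so no test is given. For 83 members the 5-day library lay above both 3-day libraries in ISC_medium and in ISC_high, for 22 it lay below in both, for 7 it lay below in ISC_medium and above in ISC_high, and for none the other way round. The 5-day library thus lay above in both gates for 49.1% of members and below in both for 13.0%, against 27.9 and 25.5% of the 9196 stems with a mean of at least 5 CPM. On the TMM scale the median log2 difference was 0.27 in ISC_medium (replicate A against B and C) and 0.19 in ISC_high (D against B and C). The 2-day library of ISC_high had a median of -0.08 against the same B and C. Across the 169 members, which are not independent replicates, the 5-day differences of both gates had a Spearman correlation of 0.90, with no library in common, against 0.73 across the 9196 stems. They had the same sign for 84.6% of members and 74.5% of those stems. In each gate the 5-day and 3-day libraries belong to the same depth range.

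Examples from the ends of this pattern are c26132_g1 and c26240_g1. The stem c26132_g1 had 2992 CPM at 5 days, against 1331 and 1826 CPM at 3 days in ISC_medium, and 2601 CPM at 5 days, against 1699 and 1432 CPM at 3 days in ISC_high. The stem c26240_g1 had 443 CPM at 5 days, against 1458 and 1203 CPM at 3 days in ISC_medium, and 545 CPM at 5 days, against 1092 and 993 CPM at 3 days in ISC_high. The first was thus high and the other low after 5 days in both gates, but the 2-day library of ISC_high had 1605 and 691 CPM, so c26240_g1 was low at 2 days too. Without ISC_medium replicate A, the 5-day library, 71 members were called between the gates, 68 higher and 3 lower, where 29.9% of all stems were called (12% higher and 17.8% lower). With only the 3-day interstitial libraries, 53 were called, 52 higher and 1 lower, where 24.2% of all stems were called (11.1% higher and 13.1% lower).

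Starvation was compared within each epithelial layer. In eESC_10d against eESC_3d, 34 members were called, 8 higher and 26 lower, where 12.3% of all stems were called (6.52% higher and 5.76% lower). The median log2 fold change was -0.25 over members and 0.16 over all stems, and 125 of the 169 had a negative one. Scaled by library size alone, 25 were higher and 25 lower, and the all-stem median moved to 0.34. Median-of-ratios factors gave 2 higher and 39 lower.

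The lowest fold change belonged to c25202_g2. It had 1046, 949, 1027 and 1023 CPM in eESC_10d, against 2160.0, 1865 and 1968 CPM in eESC_3d, and was 2.25-fold lower (log2 fold change -1.17, SE 0.23, edgeR's adjusted p = 0.005). The stem c25821_g1 had 932, 848, 839.7 and 809 CPM in eESC_10d, against 1651, 1458 and 1312 CPM in eESC_3d (log2 fold change -0.97, SE 0.21, edgeR's adjusted p = 0.0074). Neither stem overlapped between the groups. The stem c26175_g1 had 1937, 1814, 1837 and 1836 CPM in eESC_10d, against 3538, 2969 and 2872 CPM in eESC_3d (log2 fold change -0.95, SE 0.21, edgeR's adjusted p = 0.0097). For all 3 members the highest 10-day library lay well under the lowest 3-day one.

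Among the 8 members that were higher after 10 days, c25837_g1 had 1634, 1536, 1503 and 1639.9 CPM in eESC_10d, against 727, 915 and 816 CPM in eESC_3d (log2 fold change 0.77, SE 0.17, edgeR's adjusted p = 0.0079). The stem c25983_g2 had 2028, 1889, 1778 and 1983 CPM in eESC_10d, against 828, 1247 and 909.5 CPM in eESC_3d (log2 fold change 0.78, SE 0.24, edgeR's adjusted p = 0.039). The stem c24312_g1 had 1072, 989, 916 and 1084 CPM in eESC_10d, against 345, 665 and 566 CPM in eESC_3d (log2 fold change 0.80, SE 0.26, edgeR's adjusted p = 0.05). All 3 had groups that did not overlap. The calls of c24312_g1 and c25983_g2 were lost when any 1 of the 7 libraries was left out (adjusted p from 0.053 to 0.219).

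The eESC calls changed when single libraries were left out and with a term for the depth range. That term rests on gESC_3d replicate C against A and B, and replicate C lay nearer to the gESC_10d libraries than to A and B. Without eESC_3d replicate A, 2 members were called, and the calls of c25821_g1 and c26175_g1 were lost (adjusted p = 0.0623 and 0.0785). Without eESC_3d replicate C there were 14, and without eESC_10d replicates B, C or D there were 13, 19 or 14. All eESC_10d libraries were deeper and all eESC_3d libraries shallower. With a term for the depth range no member was called, and the medians were 0.31 over members and 0.19 over all stems. The share of all stems called with the term is not given. The fold changes of c25202_g2, c25821_g1 and c26175_g1 became 0.13, 0.10 and 0.25. All 26 members lower in eESC_10d were also lower in gESC_3d replicate C, the deeper library, than in A and B, with a median log2 difference of -1.05. With libraries thinned to the smallest total, 7 members were called higher and 30 lower, with medians of -0.29 over members and 0.12 over all stems. Thinning evens the totals only, and starvation and depth range cannot be told apart in eESC.

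In gESC_10d against gESC_3d, edgeR called no member, where 0.0656% of all stems were called. At an unadjusted p under 0.05 there were 77 members, and DESeq2 called 22, all lower. The share of all stems is not given for either count, so neither can be set against the 0.0656%. With DESeq2 the medians were -0.37 over members and -0.06 over all stems. The median log2 fold change was -0.37 over members and 0.04 over all stems, and 143 of the 169 had a negative one. Without gESC_3d replicate C, 69 members were called, 1 higher and 68 lower, where 5.22% of all stems were called (1.26% higher and 3.95% lower). The remaining 3-day libraries, A and B, are both in the shallower range and the 10-day libraries in the deeper one.

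The stem c25202_g2 again had the lowest fold change. It had 843, 992 and 917 CPM in gESC_10d, against 2077, 2062 and 1019 CPM in gESC_3d. Replicate C of gESC_3d lay at the level of the 10-day libraries and far from A and B; without it the log2 fold change was -1.48 (edgeR's adjusted p = 0.00023). The stem c25846_g1 had 5141, 5162 and 4713 CPM in gESC_10d, against 8767, 9939 and 4871 CPM in gESC_3d. It showed the same arrangement, with a log2 fold change of -1.21 without replicate C (edgeR's adjusted p = 0.0007). In eESC the same stem had 7169.5, 6343, 6410.2 and 6135 CPM in eESC_10d, against 11989.9, 10073 and 10517 CPM in eESC_3d (log2 fold change -0.93, SE 0.22, edgeR's adjusted p = 0.013).

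In eESC and gESC starvation, 149 of the 169 members had a fold change of the same sign, 88.2%, against 69.0% of all stems. The comparisons share no library, and the Spearman correlation was 0.93 across members and 0.42 across all stems. Members are not independent replicates, and depth range follows the days in both layers but for gESC_3d replicate C. Without that library the sign was shared by 141 members, 83.4%, and 69.0% of all stems, with correlations of 0.92 and 0.42. Then 22 members were lower in both layers, 84.6% of the 26 lower in eESC_10d and 32.4% of the 68 lower in gESC_10d; 1 was higher in both and none went opposite ways. Of all stems, 444 were lower in both, 42.2% of those lower in eESC_10d and 58.4% of those lower in gESC_10d; 102 were higher in both and none went opposite ways. A test of the difference between the layers' starvation effects, the interaction term in edgeR, called no member, where 0.082% of all stems were called, and none without gESC_3d replicate C, where 0.0463% were. With all libraries it had 1 member at an unadjusted p under 0.05, and DESeq2 called none.

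Gate and starvation fold changes were set side by side. Of the 110 members higher in ISC_medium, 92 had a negative fold change in eESC_10d against eESC_3d and 103 in gESC_10d against gESC_3d (106 without gESC_3d replicate C). The sign was opposite to that of the gates for 74.6% of members and 58.9% of all stems in eESC, and for 84.0% and 62.3% in gESC. Between the gates 154 of the 169 members had a positive fold change, and with starvation 125 (eESC) and 143 (gESC) had a negative one. Opposite signs are thus frequent among members even with no link between the fold changes of a member. The Spearman correlation across members was -0.48 with eESC starvation and -0.53 with gESC starvation, against -0.12 and -0.28 across all stems, with no library in common. Without gESC_3d replicate C the gESC values were -0.55 across members and -0.36 across all stems. In these comparisons the group named first and the group named second differ in depth range, shallower first for the gates and deeper first for starvation. The exception is gESC_3d replicate C, which is in the deeper range like gESC_10d. The part of depth range in these correlations was not tested.

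**Figure D4:**
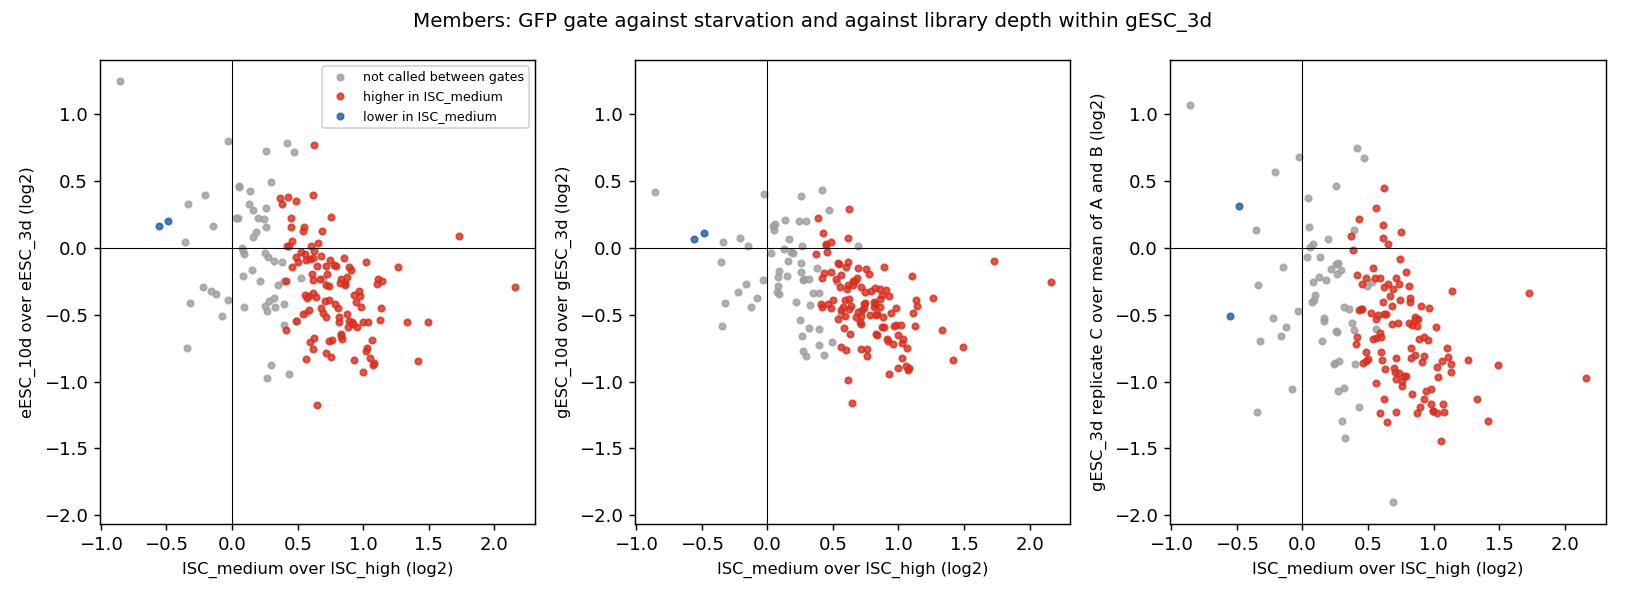
Log2 fold change of ISC_medium over ISC_high (horizontal axes) for the 169 members, against the log2 fold change of eESC_10d over eESC_3d (left), of gESC_10d over gESC_3d (middle) and the log2 difference of gESC_3d replicate C from the mean of A and B (right). Points are members, red where higher and blue where lower in ISC_medium by edgeR's call, and grey where not called; most red points lie below 0 in all panels (92, 103 and 102 of 110).

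Over the 8 comparisons, 156 members, 92.3%, were called in at least 1 and 13 in none, where 90.4% of all stems were called in at least 1. Those 13 included c25911_g1, one of the steadiest 5, with 1523 to 2311 CPM over the sorted libraries, and c26240_g1, with 211 to 1458 CPM. Members without a call thus included both level and widely varying ones.

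Unsorted body columns held most of the members at a like level. In both unsorted libraries 152 members had at least 500 CPM, and 8 had less in both. Highest against the sorted groups was c24133_g1, at 5382 CPM in the actin line and 5387 in the cnnos1 line, against 1316 to 4296 CPM in the sorted libraries; its mean was 2.54 times that of the 6 groups. The stems c25753_g1, at 2989 and 3689.8 CPM, and c25733_g1, at 3193 and 3167 CPM, were 2.54 and 2.00 times the mean of the groups. Only c24133_g1 and c25708_g1 (2440 and 2301 CPM, against 1066 to 2002) lay above all 20 sorted libraries in both. All 3 of the stems named first were highest, among sorted libraries, in the 5-day library of ISC_medium.

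At the other end, the lowest ratios belonged to c25746_g1, at 337 and 314 CPM unsorted against 460 to 1428 sorted, c26240_g1, at 354 and 284 CPM against 211 to 1458, and c26061_g1, at 520.0 and 429 CPM against 721 to 1369. In both unsorted libraries 13 members lay below all 20 sorted ones, c25746_g1 and c26061_g1 among them but not c26240_g1. Also among the 13 were the abundant stems c25830_g1, c26342_g1 and c26279_g1. The share of all stems that lie below or above all sorted libraries is not given, so nothing is read from such counts. The rule asked for a high level in sorted groups only, which favours sorted over unsorted levels. There is 1 unsorted library per line, so these differences have no replicate check, and sorted and unsorted cells differ in handling as well as in makeup.

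Of the members, 112 of 169 (66.3%) had more than 1 contig, with a median of 2 and up to 17. Of all 44306 stems, members included, 8844 (20.0%) had more than 1, and only 18288 stems passed the filter on low counts. The rule acts on the sum over a stem's contigs, so having several contigs helps a stem to become a member. Single contigs in place of stems gave 159 members. The same contig took the most counts in all 6 groups in 146 members, 57 of which have a single contig, and 23 members changed their leading contig between groups. The leading contig differed between ISC_medium and ISC_high in 16 members, between eESC_10d and eESC_3d in 11, between gESC_10d and gESC_3d in 12, between eESC_3d and gESC_3d in 6 and between eESC_10d and gESC_10d in 4. Contigs of a stem share sequence, so their counts are estimates that may be split between them, and the sums by stem are the firmer values.

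The largest changes between groups were in c24559_g1. Its contig c24559_g1_i03 took 96.9, 96.1 and 97.1% of the stem's counts in ISC_medium, against 31.7, 17.6, 34.8 and 18.5% in ISC_high. In epidermal libraries it took 96.1 to 98.2%, in gESC_3d 96.2, 96.6 and 96.0%, but 13.8, 89.7 and 53.1% in gESC_10d. Nearly all other counts belonged to c24559_g1_i01. The gates thus did not overlap in this share, while replicates of gESC_10d differed as much as groups did.

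In c25740_g1 the contig c25740_g1_i04 took 8.12, 24.9 and 13.7% of counts in ISC_medium, against 70.5, 64.7, 32.2 and 67.1% in ISC_high. It took 65.2, 59.2, 64.5 and 63.8% in eESC_10d, against 7.63, 3.37 and 2.26% in eESC_3d. It took 54.3, 53.4 and 63.1% in gESC_10d, against 0.855, 5.78 and 55.1% in gESC_3d. All 8 shallower sorted libraries had at most 24.9% and all 12 deeper ones, gESC_3d replicate C included, at least 32.2%, so this share followed the depth range without exception. In c25855_g1 the contig c25855_g1_i02 took 25.1, 29.0 and 25.2% in ISC_medium, against 78.9, 74.8, 50.4 and 79.1% in ISC_high, and 81.4% in gESC_3d replicate C against 18.9 and 54.3% in A and B.

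Another contig of c25855_g1 was close to absent from epidermal libraries. The contig c25855_g1_i05, singled out after its values were seen, took 0.169, 0, 0 and 0% of the stem's counts in eESC_10d and 0, 0 and 0% in eESC_3d. It took 17.2, 15.6 and 17.5% in gESC_10d, 5.06, 14.2 and 16.7% in gESC_3d, 27.0, 34.3 and 34.1% in ISC_medium and 18.2, 18.0, 13.2 and 16.8% in ISC_high. All gastrodermal and interstitial libraries thus held it and 6 of the 7 epidermal libraries were at 0. The unsorted library of the actin line, whose label names epidermal cells as the eGFP cells, was at 0 too, although its body column was not sorted, and the unsorted cnnos1 library had 14.2%. A count of 0 allows a share of up to 0.0242% in these libraries, by 3 counts of the stem's total and for counting error only. Among the sorted libraries, population and animal line cannot be told apart in this contig. The unsorted libraries are single, and the cause was not tested.

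In c26327_g1 and c25067_g1 replicates of 1 group used different contigs. The contig c26327_g1_i01 took 79.1, 79.4 and 80.9% in ISC_medium, against 0.0319, 94.4, 99.8 and 0% in ISC_high, where the 0 allows up to 0.00466%. Its share thus ran from at or near 0 to nearly all within the high gate. The stem's total in the same ISC_high libraries was 2367, 2665, 2536 and 2493 CPM, with no such split. The contig c25067_g1_i02 took 95.5, 39.6 and 96.2% in gESC_10d, against 77.1, 47.9 and 71.0% in gESC_3d.

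**Figure D5:**
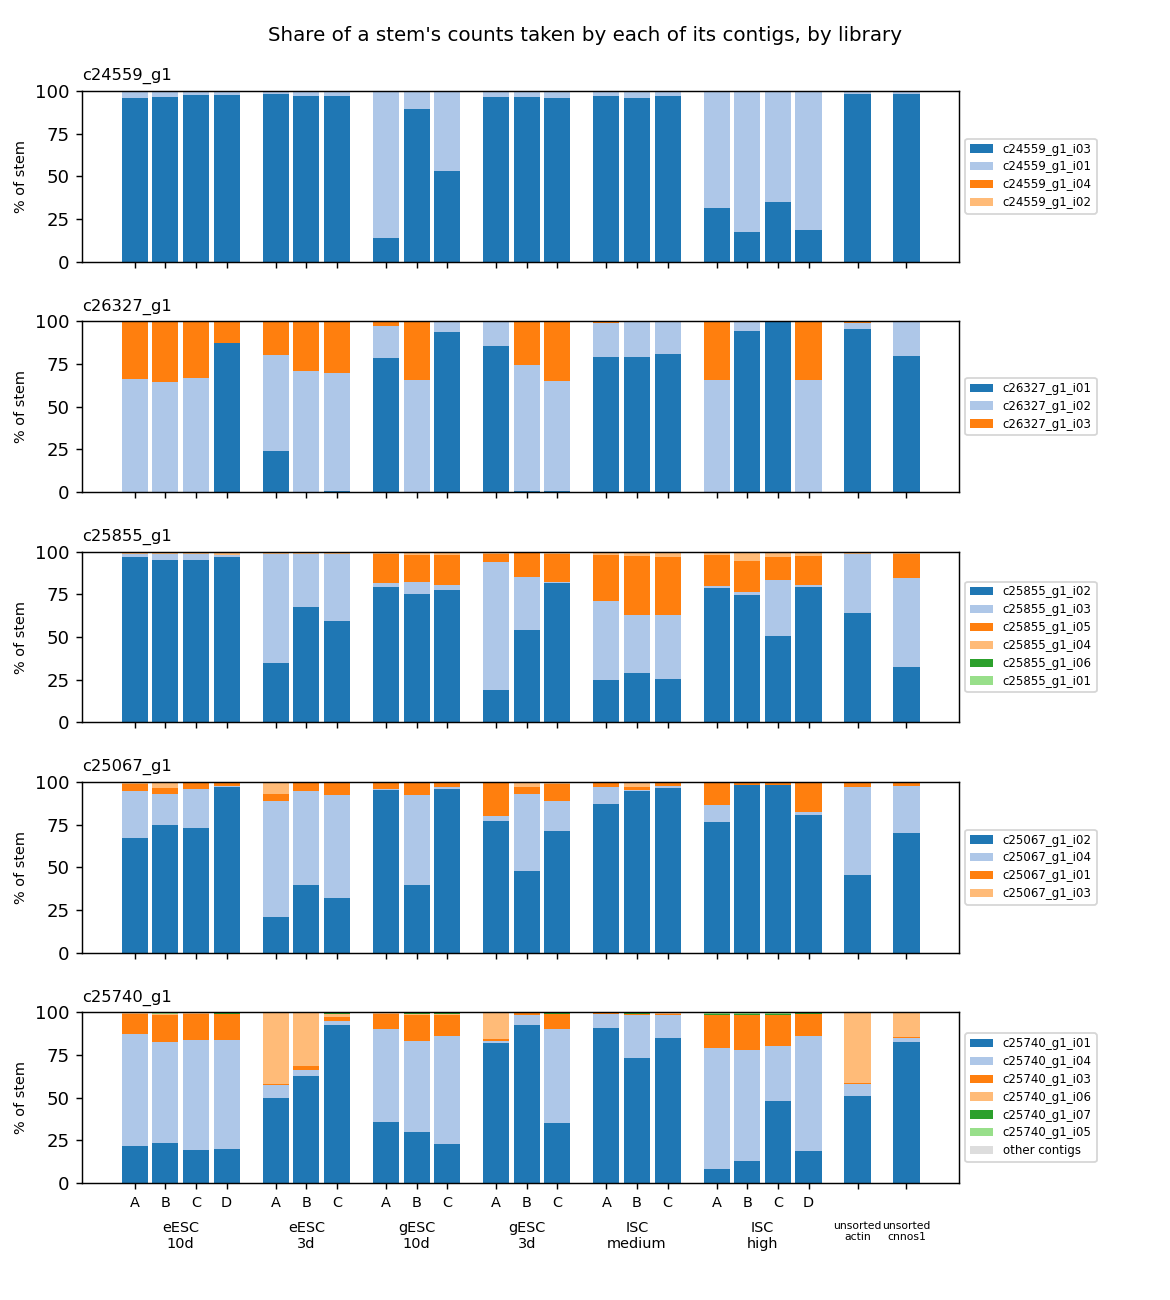
Share of a stem's counts (%, vertical axes) taken by each of its contigs in each library (horizontal axis), for the 5 members whose leading contig changed most between sorted groups. In c24559_g1 the contig c24559_g1_i03 takes 17.6 to 34.8% in ISC_high and 96.1 to 97.1% in ISC_medium; in c26327_g1 the contigs change between replicates of a group.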

How the data were processed

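RNA was purified with Qiagen RNeasy, enriched for polyadenylated RNA and made into directional Illumina TruSeq libraries, per the labels' protocols. The authors deposited whole-number read counts of 61501 transcript contigs in 22 libraries. The submitters' processing notes name cutadapt 1.11, Salmon 0.7.2 and DESeq2; their roles, the read length and the transcriptome used are not given in the sources used here. The second deposited table holds signal, the same counts of 26024 contigs times a factor per library (largest relative deviation 6.30e-11), and was not used for values. The 14 largest counts end in 0, so large values were deposited to 6 digits. Totals by library range are in the text; their size makes counting error small beside the spread between replicates, and intervals cover counting error only (95% Wilson bounds for the share of the members in the unsorted actin library, 43.3 to 43.3%).

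Contigs were summed by stem, giving 44306 stems. CPM were computed on column totals. The members, lists and comparisons were chosen with earlier results of these data known. The lists of gene classes and cell type markers (ribosomal proteins, elongation factors, actins, tubulins, histones, heat shock proteins, ferritin, mitochondrial subunits, nanos, vasa, piwi, minicollagens and others) could not be tested, since 0 stems matched the reference table.

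Differences were tested with edgeR 4.0.16 (quasi-likelihood, TMM, filterByExpr at 10 counts and a total of 15, 1 mean per group, all 20 sorted libraries) in R 4.3.3 with limma 3.58.1. The filter kept 18288 stems with 99.7 to 99.9% of counts, and calls were made at a Benjamini-Hochberg adjusted p under 0.05. The procedure was tested on simulated data. Members named were the 10 most abundant, the 3 highest and 3 lowest called ones per comparison whose groups did not overlap, the 5 steadiest and 5 most variable between groups, the 3 variable ones within groups, the 3 on each side of the threshold, the 3 highest and 3 lowest in unsorted libraries and the 5 with the largest change of leading contig. The stems c26132_g1, c25846_g1 at gESC_10d and the days within the interstitial gates were picked after their values were seen.

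The alternatives tried were DESeq2 1.42.0, library size alone or median-of-ratios factors as scaling, no filter or one at a mean of 5 CPM, the leading contig, only the groups compared, a term for the depth range, the replicate letter as a block, other groups for a population, only 3-day interstitial libraries, other thresholds of the rule and leaving out each library. Added after seeing the data were TMM factors without the members, thinned libraries and members chosen on part of the groups.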

Additional observations from a re-analysis of the deposited data

Results flagged for a closer look

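Among 104 groups of 4 libraries, of the named stems and of the members' shares, 2 had a library farther from the others than Dixon's 95% limit. The limit passes about 1 in 20 by chance in independent tests, but these tests share the same libraries. The stem c25450_g1 had 721 CPM in eESC_10d replicate B, against 815 to 826 CPM in the other libraries of that group. The stem c25753_g1 had 1019 CPM in eESC_10d replicate A, against 887 to 904 CPM in the others.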

How the results depend on the processing

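Of 222 alternative values of the counts and shares, 176 stayed near the value given and 46 moved. Of 653 alternative values of 35 named fold changes, 588 kept direction and call, 62 lost the call (10 of them with the term for the depth range) and 3 changed sign. Where none is given, the cause was not tested.

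Calls in eESC_3d against gESC_3d numbered 14 with no filter, 48 with the depth term and 8 with only those groups fitted, and 12 to 47 with 1 library left out. In eESC_10d against gESC_10d there were 29 with library size alone and 27 with only those groups. In eESC_3d against ISC_high there were 120 with ISC_medium in place of ISC_high. In gESC_3d against ISC_high there were 45 with only those groups, and 46 to 91 with 1 library left out. In ISC_medium against ISC_high there were 74 with library size alone, 11 with the depth term and 53 with 3-day libraries only (fewer samples), and 71 to 108 with 1 library left out. In eESC_10d against eESC_3d there were 19 with no filter, 0 with the depth term, 61 with only those groups and 60 with DESeq2, and 2 to 29 with 1 library left out. In gESC_10d against gESC_3d there were 4 at a mean of at least 5 CPM, 22 with DESeq2, and 0 to 69 with 1 library left out. The depth term turned the eESC_10d fold changes of c25202_g2, c25821_g1 and c26175_g1 to 0.13, 0.10 and 0.25.

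With the depth term the splits were 2 higher and 46 lower (eESC_3d against gESC_3d), 6 and 75 (eESC_3d against ISC_high), 14 and 51 (gESC_3d against ISC_high) and 3 and 8 (the gates). DESeq2 gave 46 and 32 in eESC_3d, and 59 and 17 in gESC_3d, against ISC_high, and 6 and 54 in eESC_10d against eESC_3d.

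A threshold of 250 CPM gave 296 members and 1000 CPM gave 95. Shares at 250 and 1000 CPM were 45.1 and 30.2% in eESC_10d, 44.9 and 29.7% in eESC_3d, 48.8 and 33.7% in gESC_10d, 49.2 and 33.4% in gESC_3d, 57.3 and 40.1% in ISC_medium, and 55.5 and 38.6% in ISC_high, by construction. Without c26324_g1 they were 34.0% in gESC_10d, 36.1% in gESC_3d and 42.5% in ISC_high. Stems chosen on the 10-day groups alone took 44.3% in eESC_3d, 47.8% in gESC_3d, 51.8% in ISC_medium.

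The replicate letters showed no clear pairing of the samples. Deviations of the 46 same-letter pairs correlated from -0.51 to 0.59 (median 0.061), and 22 were over 0.1. The 120 pairs of other letters had a median of -0.023, and 49 were over 0.1. With 3 or 4 libraries per group, this check cannot decide whether letters pair samples. With the letter as a block, calls numbered 25, 14, 61, 60, 102, 30, 0 and 0 in the order of comparisons given in the report (layers at 3 and 10 days, eESC_3d and gESC_3d against ISC_high, gates, eESC and gESC starvation, interaction).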

Other observations

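Some members share an assembly component, the first part of the stem name: c25067_g1 and c25067_g2, c26050_g2 and c26050_g1, and c25202_g2 and c25202_g1. Over the sorted libraries c25067_g1 had 7462 to 16780 CPM and c25067_g2 3277 to 6910 CPM. The stem c26050_g2 had 2405 to 6027 CPM and c26050_g1 857 to 3076 CPM, and c25202_g2 had 843 to 2160.0 CPM and c25202_g1 571 to 1160.0 CPM. Whether such pairs share reads was not tested. Of the 465 contigs of the members, 440 are in the second deposited table.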
